A study of Mus musculus with 72 samples.

Results

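The 10 genes described here are atrophy and nutrient-sensing genes of skeletal muscle, namely *Fbxo32*, *Trim63*, *Foxo1*, *Foxo3*, *Sesn1*, *Sesn2*, *Castor2*, *Ddit4*, *Deptor*, and *Eif4ebp1*. They were chosen by name from the 55401 genes of the tables, as ubiquitin ligases, sensors and regulators of mTORC1, and FOXO factors and targets that had drawn attention in *Bmal1*-KO muscle. All 10 were found in both tables and all 10 had enough reads to be tested. The choice used the contrast of KO with WT, so its values are given as a description, and the counts of members past a threshold in it support nothing. *Fbxo32* lies on chromosome 15 (58175879 to 58214932 in GRCm38), *Trim63* on chromosome 4 (134315120 to 134329629), and *Castor2* on chromosome 5 (134099711 to 134144343). *Foxo1* lies on chromosome 3 (52268336 to 52353221), and all 10 are protein-coding genes.

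Poly(A) RNA of whole gastrocnemius, a calf muscle of mostly fast fibers, was sequenced from male mice at ZT1, which is 1 hour after lights on. WT littermates were compared with mice that lack the clock gene *Bmal1* (symbol *Arntl*) in every cell (KO), and with KO mice given AAV9-*Bmal1* 5 days after birth, a vector whose CK6 promoter drives the cDNA constitutively in muscle (KO+AAV). At 10 weeks of age there were 6 WT, 6 KO, and 7 KO+AAV libraries, and at 40 weeks there were 5 of each. A separate experiment held 3 libraries of KO mice given a GFP vector (KO+GFP) and 3 of KO control mice, all at 10 weeks, so every library not labelled WT was labelled as lacking the endogenous *Bmal1* gene. The 40 gastrocnemius libraries are part of 72 in the series, and nothing states which share a litter or cage, so *P* values measure only the spread between these libraries. Because the vector is constitutive and no library was taken at another time of day, the data hold no rhythm.

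Muscle mass depends on the balance between protein synthesis, which the kinase complex mTORC1 promotes when amino acids and growth factors are plentiful, and protein breakdown through the ubiquitin-proteasome and autophagy systems. When insulin and IGF signaling is low, the FOXO transcription factors enter the nucleus and raise genes of breakdown, among them the muscle ubiquitin ligases *Fbxo32* (atrogin-1) and *Trim63* (MuRF1), and glucocorticoids raise several of the same genes. CASTOR1, the arginine sensor to which CASTOR2 is related, and sestrin proteins bind amino acids and hold mTORC1 back when these are scarce. DDIT4 and DEPTOR inhibit mTORC1 by other routes.

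Promoter sequence was held in the RefSeq table for 7 of the 10 genes, in 8 windows (GRCm38.p6). In the 250 bases before each start, 4 motifs were searched on both strands: the E-box CACGTG, which BMAL1-CLOCK binds, the FOXO motif GTAAACA, the consensus glucocorticoid response element, and the ATF4 motif TGATGNAA. The *Trim63* window is shown because it was the 1 window of the 8 with any match, and the downstream *Sesn1* window is shown beside it as a window with none from a gene with a high outlying value below. Capitals mark the glucocorticoid motif and, after 1 base, the FOXO motif on the other strand.

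Trim63, chr4:134314870-134315119 (+): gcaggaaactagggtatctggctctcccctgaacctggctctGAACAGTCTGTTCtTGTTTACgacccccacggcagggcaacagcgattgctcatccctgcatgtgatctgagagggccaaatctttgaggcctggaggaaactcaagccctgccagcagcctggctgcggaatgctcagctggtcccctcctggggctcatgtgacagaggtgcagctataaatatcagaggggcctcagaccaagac

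Sesn1, chr10:41887189-41887438 (+): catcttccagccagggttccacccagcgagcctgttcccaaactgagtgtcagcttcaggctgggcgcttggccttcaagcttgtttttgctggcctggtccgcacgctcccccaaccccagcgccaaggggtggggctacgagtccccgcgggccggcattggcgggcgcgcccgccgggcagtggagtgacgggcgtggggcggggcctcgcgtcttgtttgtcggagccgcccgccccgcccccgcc

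The glucocorticoid motif of *Trim63* began 208 bases and the FOXO motif 194 bases before the start. Of 32851 promoter windows in the table, 0.387% held the glucocorticoid motif, 3.17% the FOXO motif, 6.02% the E-box, and 3.45% the ATF4 motif, and in 13 windows matches to different motifs overlapped. These matches are letters in a window and were not tested as binding sites.

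Reads counted on genes ranged from 6754312 to 41733282 per library. The 10-week libraries of the main table were sequenced at ICBR or at Novogene, and the 40-week and GFP libraries at Novogene alone, and the site of sequencing was a term of the fit. No member differed between sites at an adjusted *P* under 0.05 (limma, smallest adjusted *P* = 0.254, for *Castor2*), although 23.0% of all genes did. All 8 skeletal muscle markers were abundant in every group, and in whole muscle a smaller share of a cell type and less RNA per cell cannot be told apart.

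*Arntl*, the targeted gene, was counted at 402 to 634 in the 6 WT libraries at 10 weeks (normalized counts) and at 196 to 296 in the 6 KO libraries. The 7 KO+AAV libraries of that age had 169 to 281, so the count was not higher with the vector than in KO. In gastrocnemius of KO+AAV mice at 10 weeks, the paper detected the tagged BMAL1 protein and, by qPCR, a shift of most core clock genes toward WT. The count here is of RNA reads and does not measure that protein. At 40 weeks the 5 WT libraries had 480 to 608, the KO libraries had 381, 1039, 395, 312, and 308, and the KO+AAV libraries had 268 to 359. KO replicate 2 at 40 weeks thus stood above every WT library in a count that should be low, and is called below the library labelled KO replicate 2. It also stood apart in the 10 genes, as did KO+AAV replicate 2 at 40 weeks, whose *Arntl* count of 268 lay near the rest of its group. The 2 libraries carry the same replicate number. All groups shared 1 estimate of the spread, so these libraries also widen the standard errors at 10 weeks, and counts of members past the threshold are given without them at both ages.

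In the library labelled KO replicate 2, 7 of the 10 genes were more than 2-fold above the median of the other 4 KO libraries, against 9.69% of the 16199 genes tested. That library belongs to the contrast that chose the genes, so its count is a description and supports nothing. In KO+AAV replicate 2, 7 of the 10 were more than 2-fold above the median of the other 4, against 3.33% of all genes. That library was singled out by its values of these same genes, so its count is also a description and supports nothing. Of the 40-week libraries with other replicate numbers, 6 had a larger share of all genes above that mark. The 7 members were *Fbxo32*, *Trim63*, *Sesn1*, *Ddit4*, *Foxo1*, *Foxo3*, and *Eif4ebp1* in both libraries. *Castor2* was the lowest of its group in both, *Deptor* was below the median of the other 4 in both, and *Sesn2* was 1.31-fold and 1.34-fold above it. The plot of values by library shows these libraries as triangles.

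**Figure D1:**
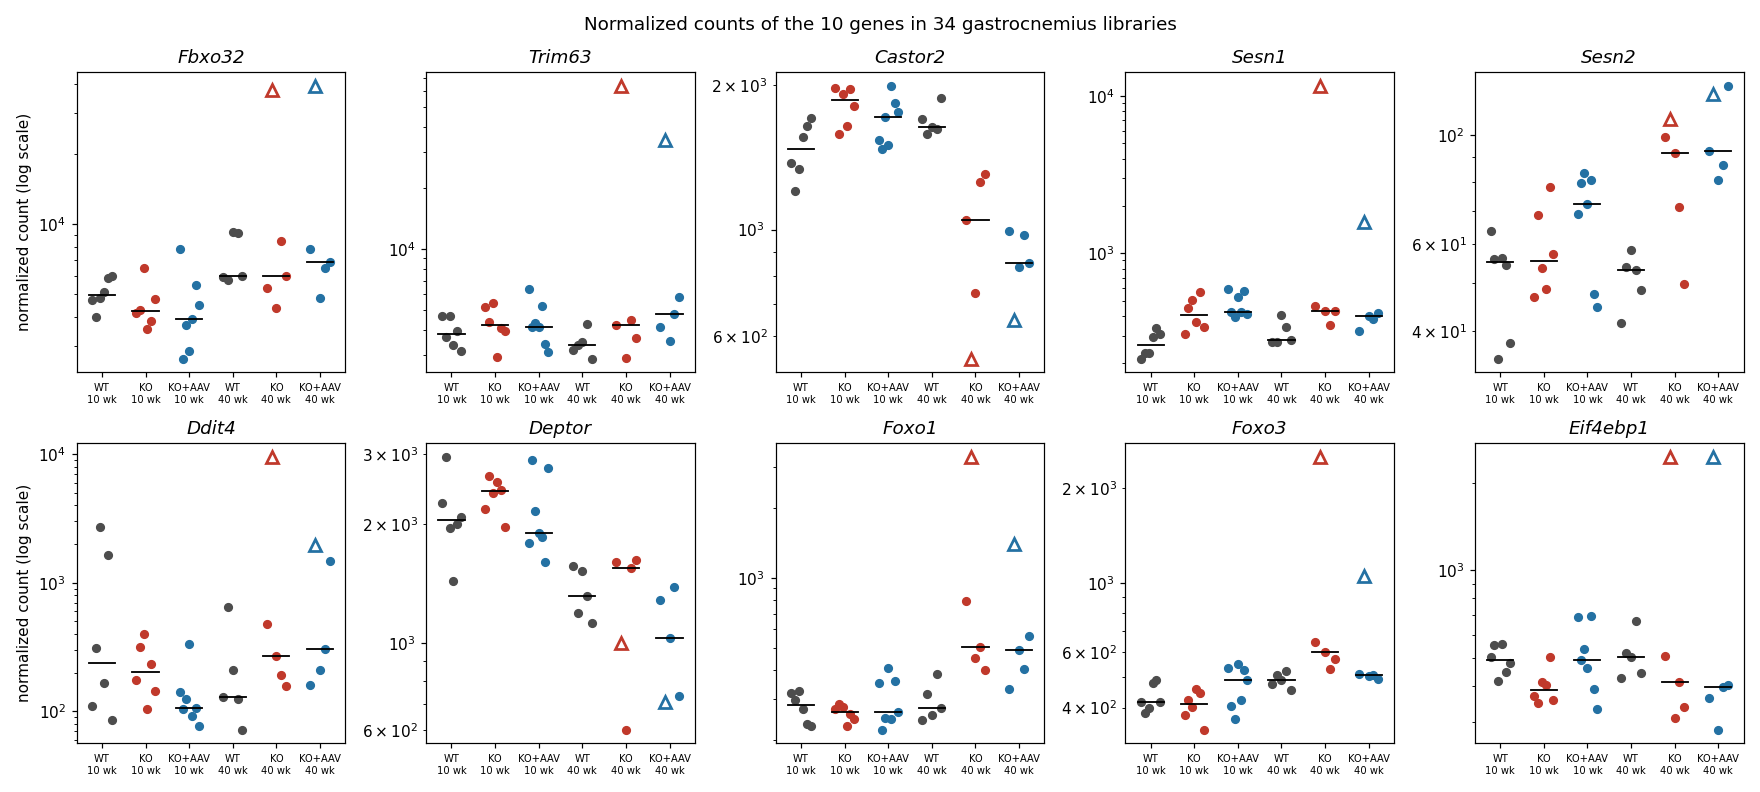
Normalized counts (log axis) of each gene in the 34 gastrocnemius libraries of the main table, by genotype and age; each symbol is 1 library, the line is the group median, and triangles mark the library labelled KO replicate 2 and KO+AAV replicate 2 at 40 weeks. The triangles are the highest symbols of their groups for 7 genes, whereas *Castor2* is lower at 40 weeks in all 10 KO and KO+AAV libraries than in any WT library.

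The ubiquitin ligases were the most abundant of the 10 genes per length. At 10 weeks in WT the median count per kilobase of exon was 1349 for *Trim63* and 709.9 for *Fbxo32*, followed by 230.2 for *Deptor*, 224 for *Eif4ebp1*, 194 for *Castor2*, 135 for *Ddit4*, 66.1 for *Sesn1*, 55.1 for *Foxo3*, 32.8 for *Foxo1*, and 15.9 for *Sesn2*.

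*Fbxo32*, the F-box protein that brings substrates to an SCF ubiquitin ligase, had a lowest, median, and highest normalized count of 3970.0, 4952, and 5982 in WT at 10 weeks. The same values were 3551, 4219, and 6475 in KO and 2637, 3902, and 7798 in KO+AAV. At 40 weeks the WT libraries had 5947, 5773, 9286, 9185, and 5954. The KO libraries had 5326, 37693, 4347, 8498, and 5984, so that all but the library labelled KO replicate 2 lay within or below the WT range. The KO+AAV libraries had 7823, 39574, 4789, 6488, and 6878, and again all but replicate 2 lay within or below it. The outlying libraries were 6.66-fold and 5.92-fold above the median of the other 4 of their groups.

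*Trim63*, a RING ubiquitin ligase of the sarcomere that marks thick-filament proteins, ranged from 3155 to 4698 in WT (median 3833), from 2947 to 5460.0 in KO (median 4247), and from 3118 to 6385 in KO+AAV (median 4142) at 10 weeks. In the 40-week WT libraries it was at 3197, 3368, 3503, 4277, and 2892. The KO libraries had 4219, 63967, 2912, 4456, and 3637, and the KO+AAV libraries 4122, 34644, 3524, 4785, and 5792. The outlying libraries were 16.3-fold and 7.78-fold above the median of the others, and the groups overlapped with WT without them. On the log2 scale KO minus WT at 40 weeks was 0.95 ± 0.53 (SE) with all libraries and 0.14 without the 2 outlying ones. The same difference for *Fbxo32* was 0.27 ± 0.44 and turned to −0.27 without them.

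*Foxo1* and *Foxo3* encode the forkhead factors that drive many atrophy genes. *Foxo1* ranged from 230.1 to 324 in WT (median 284), from 229 to 286 in KO (median 265), and from 221 to 407 in KO+AAV (median 264) at 10 weeks. The 40-week WT libraries had 245, 315, 255, 386, and 274, and the KO libraries had 792, 3331, 451, 501, and 399. All 5 KO libraries lay above all 5 WT libraries, as did 13.6% of all genes in either direction. KO minus WT was 1.37 ± 0.36 on the log2 scale, and 0.83 without the 2 outlying libraries. The KO+AAV libraries had 329.9, 1402, 489, 406, and 561, and overlapped with both other groups.

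*Foxo3* ranged from 384 to 490.2 in WT, from 339.7 to 459.7 in KO, and from 367 to 551 in KO+AAV at 10 weeks, with medians of 417, 412, and 488. In WT at 40 weeks it was 474, 506, 488, 524, and 455. The KO libraries had 649, 2523, 602, 532, and 572, and all lay above the WT libraries, the nearest by a small margin. The KO+AAV libraries had 512, 1048, 505, 507, and 494, so that replicate 2 alone was above the WT range. KO minus WT was 0.68 ± 0.26 and became 0.26 without the 2 outlying libraries. An antisense gene, *Gm20402*, shares 7.78% of the exon bases of *Foxo1*, *Gm15943* shares 2.67% of those of *Fbxo32*, and *Gm9920* shares 3.41% of those of *Deptor*. The strand setting of the counting was not given in the sources used here, so their reads may be shared.

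The sestrins, stress-induced proteins of which SESN1 and SESN2 bind leucine and restrain mTORC1, differed from each other in pattern. *Sesn1* had a lowest, median, and highest value of 214, 263, and 334 in WT at 10 weeks. These were 307, 407, and 565 for KO and 396, 424, and 593 for KO+AAV, so that all 7 KO+AAV libraries were above all 6 WT libraries, a separation in either direction seen for 2.86% of all genes. The 40-week values were 274, 272, 407, 339, and 281 in WT. The KO libraries had 462, 11637, 432, 352, and 429, and the KO+AAV libraries 320.4, 1572, 399, 383, and 418. The library labelled KO replicate 2 was 27.0-fold above the median of the other 4 and KO+AAV replicate 2 was 4.01-fold above it. KO minus WT at 40 weeks was 1.38 ± 0.55 with all libraries and 0.42 without these, and at 10 weeks it was 0.63 ± 0.50.

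*Sesn2* had the lowest count per kilobase of the 10 in WT. At 10 weeks it ranged from 35.1 to 63.8 in WT, from 46.8 to 78.3 in KO, and from 44.8 to 83.6 in KO+AAV, with medians of 55.3, 55.4, and 72.3. The 40-week WT libraries had 41.5, 53.9, 58.4, 53.2, and 48.5, the KO libraries had 99.0, 107, 92.0, 71.4, and 49.6, and the KO+AAV libraries had 92.4, 121, 81.0, 87.0, and 126. All 5 KO+AAV libraries and 4 of the 5 KO libraries lay above every WT library. KO minus WT was 0.66 ± 0.21, and 0.56 without the 2 outlying libraries, which moved this gene little.

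*Castor2*, a relative of the arginine sensor CASTOR1 that binds GATOR2, was lower in KO and KO+AAV than in WT at 40 weeks but not at 10 weeks. At 10 weeks it ranged from 1200.0 to 1705 in WT, from 1578 to 1971 in KO, and from 1474 to 1993 in KO+AAV, with medians of 1468, 1859.6, and 1713. In WT at 40 weeks it was 1696, 1583, 1630.0, 1620.0, and 1876. The KO libraries had 1047, 539, 737, 1253, and 1302, and the KO+AAV libraries had 991, 647, 835, 972, and 852. All 10 KO and KO+AAV libraries at 40 weeks were below every WT library and below every 10-week library of their own genotype. KO minus WT was 0.31 ± 0.14 at 10 weeks and −0.86 ± 0.15 at 40 weeks, a change of −1.16 ± 0.21 between ages, and −0.97 without the 2 outlying libraries. With the Novogene libraries alone the values of *Castor2* were lower at 40 weeks in both KO (−0.96) and KO+AAV (−1.13).

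*Ddit4* encodes REDD1, which inhibits mTORC1 through the TSC complex and responds quickly to stress and glucocorticoids. It varied widely within groups, and the WT libraries at 10 weeks had 109.7, 309.5, 2697, 165, 1642, and 86.3. KO ranged from 104 to 401 (median 204) and KO+AAV from 77.0 to 332 (median 107) at that age. In the 40-week WT libraries it was at 129, 652, 209, 125, and 71.9, whereas the KO libraries had 480.1, 9522, 268, 193, and 157, and the KO+AAV libraries had 159, 1969, 209, 305, and 1474. The groups overlapped at both ages. KO minus WT at 40 weeks was 1.57 ± 0.90, and 0.52 without the 2 outlying libraries.

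*Deptor*, which binds mTOR and inhibits both of its complexes, ranged from 1437 to 2960.4 in WT, from 1966 to 2641 in KO, and from 1599 to 2913 in KO+AAV at 10 weeks (medians 2043, 2419, and 1900.0). At 40 weeks the WT libraries had 1566, 1190.5, 1524, 1318, and 1121. The KO libraries had 1604, 999, 602, 1549, and 1622, and the KO+AAV libraries 1286, 707, 1032, 1389, and 735. Values were lower at 40 than at 10 weeks with no overlap in KO and in KO+AAV, and KO minus WT was −0.16 ± 0.22 at 40 weeks.

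*Eif4ebp1* encodes 4E-BP1, the repressor of cap-dependent translation that mTORC1 phosphorylates and switches off. It ranged from 414 to 558 in WT, from 348 to 504 in KO, and from 332 to 696 in KO+AAV at 10 weeks (medians 491, 385, and 489). At 40 weeks the WT libraries had 426, 518, 501, 669, and 444, the KO libraries had 506, 2455, 309.6, 410.4, and 336, and the KO+AAV libraries had 363, 2465, 282, 397, and 402. The 2 outlying libraries held nearly the same count, 6.56-fold and 6.47-fold above the median of the others, and the other 8 lay within or below the WT range. KO minus WT was 0.14 ± 0.42 and turned to −0.40 without them.

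**Figure D2:**
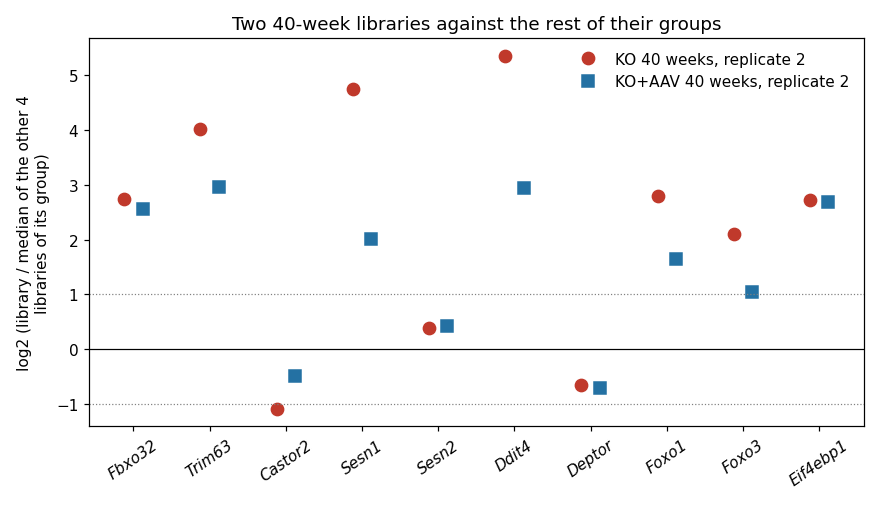
Log2 ratio of the library labelled KO replicate 2 (circles) and of KO+AAV replicate 2 (squares) to the median of the other 4 libraries of their group at 40 weeks, per gene; dotted lines mark a 2-fold difference. The 7 genes named above lie over the upper dotted line in both libraries, *Ddit4* highest at 5.36 in the KO library, and *Castor2* and *Deptor* lie below 0.

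Other gene groups moved with these 2 libraries. Of 12 glucocorticoid target genes, 11 were more than 2-fold above the other 4 KO libraries in the library labelled KO replicate 2 (list median 3.23 on the log2 scale, −0.03 for all genes), and 8 were in KO+AAV replicate 2 (1.72, −0.04 for all genes). *Mt1*, a metallothionein, was at 6513 in the former against 123 to 847 in the other KO libraries, and at 1148 in the latter against 153 to 235. *Zbtb16*, a transcription factor gene that glucocorticoids raise, was at 6952 against 1265 to 2128, and at 2655 against 1228 to 1487. The latter was 1.98-fold above the median of the others, so *Zbtb16* is not among the 8. Below that median were *Angptl4* in the library labelled KO replicate 2 (0.25-fold) and *Sgk1* in KO+AAV replicate 2 (0.57-fold). Of 18 other FOXO target genes, 9 and 3 were more than 2-fold higher, of 24 autophagy genes 8 and 2, and of 28 amino acid sensing genes 1 and 0. The shares of all genes are those given above for each library.

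Markers of other cell types were counted in these libraries as well. In KO+AAV replicate 2, 9 of 10 macrophage markers, 6 of 6 fibroblast markers, 6 of 7 adipocyte markers, and 8 of 8 slow fiber genes were at less than 50% of the median of the other 4 libraries. The share of all genes below that mark is not given here, so these counts are a description. Macrophage markers summed to 274 there and to as much as 1276 elsewhere in the group. In the library labelled KO replicate 2, 5 of 8 slow fiber genes and 3 of 10 macrophage markers were more than 2-fold higher. The share of all genes more than 2-fold higher in that library is given above. The part of these differences in the 10 genes' values was not tested.

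The counts in KO versus WT are a description of the contrast that chose the genes. At 10 weeks 0 of 10 members passed the threshold (limma), against 8.0% of all genes. At an unadjusted *P* under 0.05 (limma) there was 1, against 3175 of 16199 genes, and 0 passed by edgeR and DESeq2. DESeq2 gave *Trim63*, *Sesn1*, and *Eif4ebp1* no adjusted *P* at this age, so these genes could not pass by it. Without the 2 outlying libraries 2 passed by limma (*Castor2* at 0.31 and *Sesn1* at 0.63), against 11.6%. At 40 weeks 4 passed by limma (*Castor2*, *Foxo1*, *Foxo3*, and *Sesn2*), against 23.5% of all genes. By edgeR 7 passed, which added *Trim63*, *Sesn1*, and *Ddit4*, and by DESeq2 5, which added *Ddit4*. No share of all genes was taken for edgeR or DESeq2. At that age 2 passed without the 2 outlying libraries (*Castor2* and *Foxo1*), against 21.4%. The change of KO minus WT between ages passed for *Castor2* alone, against 0.37% of all genes. Nothing is read from these counts, since the choice of the 10 genes used them.

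The question for the vector was whether the members differed between KO+AAV and KO. This comparison shares its KO libraries with the contrast that chose the genes, so it is not independent of that choice. At 10 weeks 0 of 10 were called (limma, adjusted *P* under 0.05), against 0.204% of all genes. At an unadjusted *P* under 0.05 (limma) there were 0, against 1495 of 16199 genes, and 0 passed by edgeR and by DESeq2. DESeq2 gave *Trim63*, *Sesn1*, and *Eif4ebp1* no adjusted *P* at this age, so these genes could not pass by it. At 40 weeks 0 of 10 were called, against 0.259% of all genes. At an unadjusted *P* under 0.05 (limma) there were 0, against 1631 of 16199 genes, and 0 passed by edgeR and by DESeq2. The count was also 0 without the 2 outlying libraries, against 0.605% of all genes at 10 weeks and 0.216% at 40 weeks. The differences at 40 weeks ran from −0.69 ± 0.55 for *Sesn1* to 0.30 ± 0.21 for *Sesn2*, with −0.43 ± 0.26 for *Foxo3*, −0.44 ± 0.36 for *Foxo1*, and −0.12 ± 0.15 for *Castor2*. The standard errors for *Ddit4* (0.90), *Sesn1* (0.55), *Trim63* (0.53), *Fbxo32* (0.44), and *Eif4ebp1* (0.42) leave room for sizeable differences of these genes in either direction. The change of KO+AAV minus KO between ages was called for 0 of 10 (limma), against 0.00617% of all genes. At an unadjusted *P* under 0.05 (limma) there were 0, against 835 of 16199 genes, and 0 passed by edgeR and DESeq2.

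KO+AAV was also compared with WT, a comparison that shares its WT libraries with the contrast that chose the genes. At 10 weeks 0 of 10 were called (limma), against 5.15% of all genes. At an unadjusted *P* under 0.05 (limma) there was 1, against 2940 of 16199 genes. By edgeR 0 passed and by DESeq2 1 (*Ddit4*), where *Trim63*, *Sesn1*, and *Eif4ebp1* had no adjusted *P* and could not pass. *Sesn1*, whose 10-week groups did not overlap, was at 0.84 ± 0.48 (adjusted *P* = 0.368), and without the 2 outlying libraries it passed at the same value (adjusted *P* = 0.000109), 1 of 10 against 8.41% of all genes. It also passed with only the groups compared (adjusted *P* = 0.00123), with library quality weights (0.00976), and with the ICBR libraries alone (1.08, adjusted *P* = 0.0149), but not with the Novogene libraries alone (0.58, adjusted *P* = 0.906). At 40 weeks *Castor2* fell by 0.98 ± 0.15 on the log2 scale (adjusted *P* = 3.75e-05) and *Sesn2* rose by 0.96 ± 0.21 (adjusted *P* = 0.00221), 2 of 10 against 12.5% of all genes. All 5 KO+AAV libraries stood apart from all 5 WT libraries for both genes, as for 11.7% of all genes. Without the 2 outlying libraries they were −0.88 (adjusted *P* = 2.79e-06) and 0.89 (adjusted *P* = 0.00532), and *Foxo1*, at 0.93 ± 0.36 (adjusted *P* = 0.0892) with all libraries, passed at 0.59 (adjusted *P* = 0.0251), so 3 of 10 were called against 14.1% of all genes. Over the 22 alternatives the adjusted *P* of *Castor2* ranged from 3.28e-08 to 0.000559 and that of *Sesn2* from 0.000275 to 0.0105. Beside these, 2 of 6 fibroblast markers and 1 of 7 adipocyte markers fell.

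**Figure D3:**
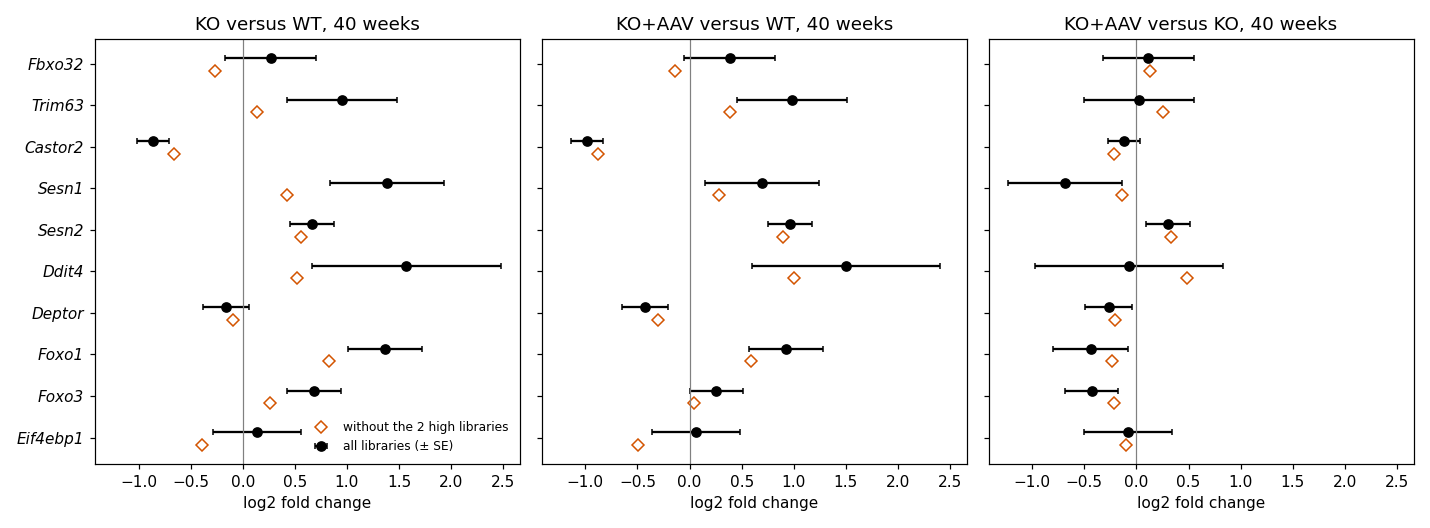
Log2 fold changes of the 10 genes at 40 weeks in 3 comparisons, as filled points with their standard errors for all libraries and as open diamonds without the library labelled KO replicate 2 and KO+AAV replicate 2. *Castor2* and *Sesn2* stay on their side of 0 in both comparisons with WT, whereas *Sesn1*, *Trim63*, *Ddit4*, and *Foxo3* move toward 0 in KO versus WT, and between KO+AAV and KO the 10 genes lie between −0.24 (*Foxo1*) and 0.48 (*Ddit4*) once the 2 libraries are left out.

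In the aging comparison, 40 versus 10 weeks, 0 of 10 members were called in WT (limma), against 0.148% of all genes. At an unadjusted *P* under 0.05 (limma) there was 1, against 1209 of 16199 genes, and 0 passed by edgeR and DESeq2. Without the 2 outlying libraries 0 were called, against 0.352%. In KO+AAV *Castor2* fell by 1.09 ± 0.16 (adjusted *P* = 3.67e-05) and *Deptor* fell by 0.98 ± 0.22 (adjusted *P* = 0.00572), 2 of 10 against 8.53% of all genes. By edgeR 4 passed, with *Fbxo32* (1.54) and *Ddit4* (3.10) higher at 40 weeks, and by DESeq2 6 passed, with *Sesn2* (0.63) and *Foxo1* higher as well. The share of all genes was not taken for edgeR or DESeq2, so these counts have none beside them. In KO+AAV replicate 2 at 40 weeks *Fbxo32* was at 39574, against 4789 to 7823 in the other libraries of its group. *Ddit4* was at 1969 there, against 159 to 1474. Neither edgeR nor DESeq2 was fitted without the outlying libraries. Both *Castor2* and *Deptor* were lower in all 5 libraries at 40 weeks than in all 7 at 10 weeks, and 5.88% of all genes had no overlap in either direction. The 40-week libraries came from Novogene alone, and among Novogene libraries *Castor2* was at −1.13 (adjusted *P* = 0.00268) and *Deptor* was −1.02 (adjusted *P* = 0.0514). Over the 16 alternatives the adjusted *P* ranged from 2.92e-09 to 0.00268 for *Castor2* and from 0.000864 to 0.0577 for *Deptor*. In WT *Castor2* was 0.10 ± 0.16 and *Deptor* was −0.55 ± 0.23 (adjusted *P* = 0.548). The change of KO+AAV minus WT between ages was −1.19 ± 0.20 for *Castor2* (adjusted *P* = 0.00274), 1 of 10 against 0.642% of all genes, with adjusted *P* = 0.201 among Novogene libraries at a like value of −1.17. For *Deptor* it was −0.43 ± 0.29 (adjusted *P* = 0.606), so the lower *Deptor* of KO+AAV at 40 weeks was not shown to differ from the change in WT. Without the 2 outlying libraries 3 of 10 were called, *Castor2* (−0.99, adjusted *P* = 3.13e-06), *Deptor* (−0.86, adjusted *P* = 0.0197), and *Foxo1* (0.69, adjusted *P* = 0.0170), against 7.1% of all genes. In KO+AAV 3 of 6 fibroblast markers and 1 of 10 macrophage markers also fell with age.

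As a description, 4 of 10 members passed the threshold in KO with age, against 8.31% of all genes, and the groups did not overlap for 4, against 4.94%. The same 4 genes (*Castor2*, *Deptor*, *Foxo1*, and *Foxo3*) passed without the 2 outlying libraries, against 4.43% of all genes, and 2 (*Castor2* and *Foxo1*) passed without the library labelled KO replicate 2 alone. By edgeR 7 passed and by DESeq2 5, with no share of all genes taken for either, nor for the fit without that library alone. In KO the 40 minus 10 week values, which rest on the libraries that chose the genes and are a description, were −1.06 ± 0.16 for *Castor2*, −0.89 ± 0.23 for *Deptor*, 1.62 ± 0.37 for *Foxo1*, and 0.90 ± 0.26 for *Foxo3*. They became −0.87, −0.83, 1.08, and 0.48 without the 2 outlying libraries. *Trim63* went from 0.81 ± 0.54 to −0.01, *Sesn1* from 0.91 ± 0.56 to −0.05, and *Fbxo32* from 0.89 ± 0.45 to 0.35.

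The GFP experiment used other animals and its own table. Of the 10 members 0 were called between KO+GFP and KO control (limma), against 3.09% of all genes. At an unadjusted *P* under 0.05 (limma) there were 5 of 10, against 2713 of 14477 genes. By edgeR 0 were called and by DESeq2 1 (*Ddit4*). *Castor2* had 801, 834, and 872 in KO control and 616, 718, and 740.2 in KO+GFP, with no overlap and a log2 difference of −0.28 ± 0.09 (adjusted *P* = 0.132). *Sesn2* had 39.7, 30.7, and 31.1 against 15.8, 26.4, and 28.2, also with no overlap (−0.54 ± 0.28, adjusted *P* = 0.325), where 23.5% of all genes had none. *Ddit4* had 107, 147, and 63.2 against 70.9, 48.7, and 47.6 (−0.85 ± 0.27, adjusted *P* = 0.113). *Foxo1* had 130.0, 93.2, and 138 against 252, 121, and 196 (0.61 ± 0.23, adjusted *P* = 0.185), and these groups overlapped. *Fbxo32* had 1489.9, 2572, and 1000.1 against 2647, 2257, and 2374 (0.63 ± 0.24, adjusted *P* = 0.184), also with overlap. The groups overlapped for the other members. Leaving out 1 library made 1 member pass in 3 of 6 cases, *Foxo1* (0.90) without KO+GFP replicate 2, *Fbxo32* (0.99) without KO control replicate 2, and *Ddit4* (−1.18) without KO control replicate 3. No share of all genes was taken for these fits. In the same comparison 6 of 8 slow fiber genes and 7 of 10 macrophage markers rose and 3 of 4 Schwann cell markers fell, and their part in the members' values was not tested.

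**Figure D4:**
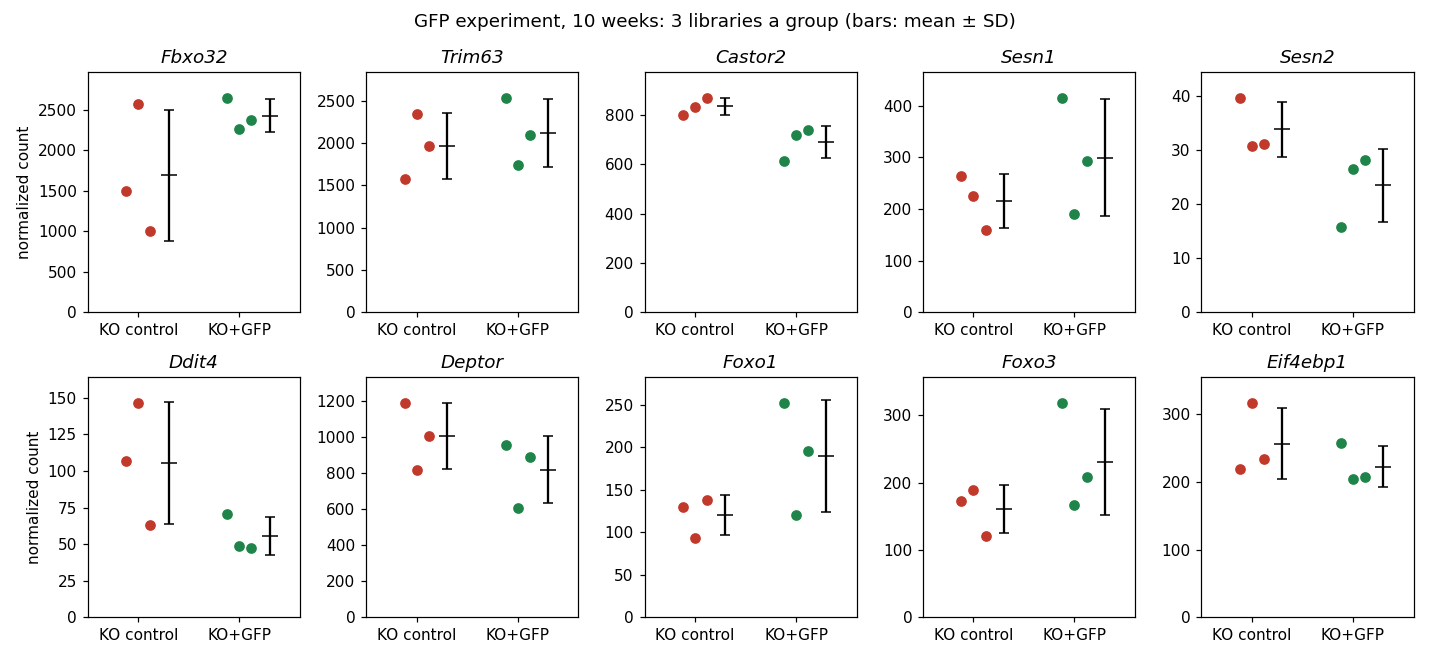
Normalized counts of the 10 genes in the GFP experiment at 10 weeks, 3 KO control and 3 KO+GFP libraries; points are libraries and bars are the mean ± SD. *Castor2* and *Sesn2* do not overlap between groups, and the other 8 genes do.

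The study counted genes at an unadjusted *P* under 0.01, and by this rule members numbered 0 of 10 in KO+AAV versus KO at 10 weeks (2.63% of all genes), 0 at 40 weeks (3.25%), 0 in KO+AAV versus WT at 10 weeks (8.75%), and 2 at 40 weeks (14.6%). With age WT gave 0 (2.27%), KO gave 4 (12.1%), and KO+AAV also gave 4 (12.1%), the last being *Castor2*, *Deptor*, *Foxo1*, and *Sesn2*. They numbered 0 in KO versus WT at 10 weeks (10.9%), 3 at 40 weeks (22.5%), and 1 in the GFP experiment (8.24%, *Ddit4*). The changes between ages gave 2 for KO minus WT (4.47%), 0 for KO+AAV minus KO (1.08%), and 1 for KO+AAV minus WT (4.12%).

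The wider pathways, from lists drawn up by function, are given for KO versus WT, where 8.0% of all genes passed at 10 weeks and 23.5% at 40 weeks in either direction. Counts near these shares say nothing of the list. Among 20 other muscle ubiquitin ligases, 1 rose at 10 weeks (*Trim72*, a membrane-repair protein, 0.49 ± 0.14) and at 40 weeks 5 rose and 2 fell, with a list median of −0.0026 against −0.01 for all genes. These included *Trim72* (1.03 ± 0.16) and *Cblb* (0.78 ± 0.22), a ligase that targets IRS1, with *Wwp1* at −0.81 ± 0.14. Without the 2 outlying libraries 3 rose and 4 fell. Among 24 autophagy genes 6 rose and 2 fell at 40 weeks (median 0.23), with *Wipi1* at 0.79 ± 0.13 and *Tfeb*, the master factor of lysosomal genes, at −0.94 ± 0.17. These lists share their libraries with the contrast that chose the members.

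Of 18 other FOXO target genes 4 rose and 0 fell at 10 weeks (median 0.17 against 0.01), against 8.0% of all genes, and 7 rose and 0 fell at 40 weeks against 23.5% of all genes (median 0.41, and 0.16 without the 2 outlying libraries). *Cdkn1a*, a cell-cycle inhibitor that p53 also raises, was at 2.78 ± 0.36 and 4.81 ± 0.40, *Gadd45a* at 0.93 ± 0.24 and 1.92 ± 0.26, and *Sesn3*, the third sestrin, at 0.79 ± 0.21 and 1.32 ± 0.23. These 3 genes were high in KO+AAV too, at 4.34, 2.01, and 1.64 over WT at 40 weeks. No gene of the 12 pathway lists passed in KO+AAV versus KO at either age.

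Of 28 amino acid sensing genes, 4 rose and 3 fell at 40 weeks (median −0.01), a share near the 23.5% of all genes, with *Sesn3* highest and *Fnip1*, a partner of folliculin, at −0.90 ± 0.19. Of 15 genes of the mTOR complexes and TSC, 2 rose, a share below that of all genes, *Mtor* (0.41 ± 0.11) and *Tsc2* (0.21 ± 0.08). Of 14 mTORC1 translation targets 2 rose and 2 fell, with *Eif4ebp2*, a relative of the member *Eif4ebp1*, at −0.67 ± 0.15. Of 17 insulin and IGF signaling genes 4 rose and 4 fell, with *Igf1* at −0.98 ± 0.32, *Foxo6* at −1.46 ± 0.50, and *Pik3r1* at 1.18 ± 0.31. Of 18 ATF4 target genes 1 rose and 1 fell, and of 12 glucocorticoid target genes 2 rose (median 0.47, and −0.20 with 1 higher and 2 lower without the 2 outlying libraries). Of 10 denervation marker genes 6 rose (median 1.29, 1.03 without those libraries), among them *Chrna1*, an acetylcholine receptor subunit, at 1.55 ± 0.21. Among cell markers in the same comparison, 2 of 7 adipocyte, 2 of 6 fibroblast, 2 of 6 satellite cell, 1 of 5 Schwann cell, and 1 of 1 tested liver marker fell, 1 of 6 endothelial markers rose, and 0 of 10 macrophage markers passed. Fast fiber genes fell in 2 of 8 cases and slow fiber genes passed in 0 of 8, at a median of 2.28. Their part in the pathway values was not tested.

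The genes whose values most resembled each member over the 34 libraries depended on the outlying pair for some members and not for others. *Castor2* was closest to *Mdga1* (Pearson *r* = 0.939, and 0.917 over the 32 other libraries) and *Rmi2* (0.903 and 0.866), and *Deptor* to *Dhrs7c* (0.910 and 0.896) and also *Rmi2* (0.909 and 0.894). *Sesn2* was closest to *Pepd* (0.857 and 0.848) and *Ddit4* to *Depp1* (0.916 and 0.863). *Trim63* was closest to *Ranbp9* (0.927), a value of 0.149 over the 32 other libraries, and *Foxo3* to *Sidt2* (0.936 and 0.512). *Eif4ebp1* was closest to *Mybbp1a* (0.904 and 0.544), *Sesn1* to *Tcp11l2* (0.945 and 0.744), and *Fbxo32* and *Foxo1* to their antisense partners *Gm15943* (0.915 and 0.728) and *Gm20402* (0.949 and 0.838). These correlations are descriptions over libraries that share genotype, age, and site.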

How the data were processed

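Per the labels and methods, reads were aligned to GRCm38 (mm10) with HISAT2, counted with HTSeq, and analyzed with DESeq2 by the authors. The deposited values are a signal, namely gene counts divided by a size factor per library, in one table for the main experiment and one for the GFP experiment. Whole reads were recovered from their steps, and 100.0% of values came out whole within 0.01 reads. Reads counted per library ranged from 6754312 to 41733282, and the library with the fewest reads gives the least precise values for low genes. The annotation release and strand setting were not given in the sources used here.

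Genes with a mean normalized count above 5 (16199 in the main and 14477 in the GFP table) were tested on log2(value + 1) with limma 3.58.1 (R 4.3.3), with trend and Benjamini-Hochberg adjustment over all genes tested. Fold changes on that scale understate the change of low genes. The 34 main libraries were fitted as 6 groups with the sequencing site as a term, and the 6 GFP libraries alone. A member is said to be called, to have risen, or to have fallen at an adjusted *P* under 0.05. Recovered reads were tested with edgeR 4.0.16 and DESeq2 1.42.0 as alternatives, beside other pseudocounts, filters, scalings, weights, sites, and sets of libraries. Shares of all genes called are from limma, and none was taken for edgeR or DESeq2. DESeq2 gave no adjusted *P* to *Trim63*, *Sesn1*, and *Eif4ebp1* in the comparisons between groups at 10 weeks in the main table. A member without an adjusted *P* is counted as not passing. The scripts were tested on simulated data.

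The members and lists were chosen with earlier results of these data known. Genes outside the members were named by a rule: of each pathway list, up to 3 genes each way with the smallest *P* among those called in KO versus WT, any gene called in KO+AAV versus KO, the genes most like each member over the 34 libraries, and genes that overlap a member. Not all genes the rule allows are printed. Exon lengths came from GENCODE vM21.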

Additional observations from a re-analysis of the deposited data

Results flagged for a closer look

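In 60 sets of a member's values in 1 group, 15 had a highest library whose gap to the next was wider than Dixon's limit at 95%. The limit assumes normal values, and the members vary together over the same libraries. The number of sets is therefore a description and is not set against chance. Of these, 13 were in the 2 outlying 40-week libraries. The library labelled KO replicate 2 was flagged for *Fbxo32* (37693), *Trim63* (63967), *Sesn1* (11637), *Ddit4* (9522), *Foxo1* (3331), *Foxo3* (2523), and *Eif4ebp1* (2455). KO+AAV replicate 2 was flagged for *Fbxo32* (39574), *Trim63* (34644), *Sesn1* (1572), *Foxo1* (1402), *Foxo3* (1048), and *Eif4ebp1* (2465). The remaining 2 were *Ddit4* in KO+AAV replicate 4 at 10 weeks (332) and in WT replicate 2 at 40 weeks (652). All values are normalized counts.

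*Castor2* was flagged for a difference between genotypes in its change with age. The difference of KO minus WT changed by −1.16 ± 0.21 from 10 to 40 weeks on the log2 scale, a contrast that uses the libraries by which the gene was chosen. That of KO+AAV minus WT changed by −1.19 ± 0.20 (limma, adjusted *P* = 0.00274), with every KO+AAV library at 40 weeks below every WT library. The latter contrast was added after the values had been seen, and it shares its WT libraries with the choice of the gene. Neither change passed the threshold with the Novogene libraries alone, the only site with both ages.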

How the results depend on the processing

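Numbers of members past an adjusted *P* of 0.05 were recomputed under alternatives, and 199 of 233 were within 1.5 times the main number. KO versus WT at 10 weeks (0) became 2 with library quality weights, 2 with only the groups compared, 2 with ICBR libraries alone, and 2 with both outlying libraries left out (*Castor2* and *Sesn1* each time), the last a setting chosen after seeing the data. At 40 weeks (4) it became 2 with quality weights, 7 with edgeR, 1 with only the groups compared, and 2 with both outlying libraries left out. KO+AAV versus WT at 10 weeks (0) became 1 with quality weights, only the groups compared, ICBR alone, or both outlying libraries left out (*Sesn1*) and 1 with DESeq2 (*Ddit4*). The age comparison gave 2, 7, 0, and 1 in KO (4) with quality weights, edgeR, only the groups compared, and Novogene alone, and 4, 4, 6, 1, and 1 in KO+AAV (2) with quality weights, edgeR, DESeq2, only the groups compared, and Novogene alone. The change between ages of KO minus WT (1) became 3 with DESeq2 and 0 with Novogene alone, and that of KO+AAV minus WT (1), a contrast added after seeing the data, became 2 and 0. KO+GFP versus KO control (0) became 1 with quality weights and with DESeq2. The share of all genes called was taken only for the main fits and for those with both outlying libraries left out. The other numbers have none beside them, so these changes are a description, and their cause was not tested.

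Each 40-week library of the groups compared was left out in turn, as was each library of the GFP experiment. The younger libraries of the main table were not left out, so the ranges with age do not test them. No share of all genes was taken with 1 library left out, so the ranges are a description. KO versus WT at 40 weeks gave 2 to 5 members. The 2 were *Castor2* and *Foxo1*, without WT replicate 1 or the library labelled KO replicate 2. KO with age gave 2 to 5 (2 without the library labelled KO replicate 2). KO+AAV versus WT at 40 weeks and KO+AAV with age each gave 2 to 3. The GFP experiment gave 0 to 1. There *Foxo1* passed without KO+GFP replicate 2, *Fbxo32* without KO control replicate 2, and *Ddit4* without KO control replicate 3. Among 2329 member values under alternatives, 0 called values changed sign, 52 came past the threshold and 36 no longer passed it, and 119 changed sign while past it in neither fit, so no direction is given for those.

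Libraries that share a replicate number correlated at −0.249 to 0.366 in their deviations, and in no comparison were all pairs over 0.1, so the numbers were not taken as pairs. In KO with KO+AAV at 40 weeks all 5 were above 0, from 0.00676 to 0.366, the highest for the 2 outlying libraries. With a replicate block 5 members passed in KO versus WT and 3 in KO+AAV versus WT at 40 weeks, and 0 in KO+AAV versus KO at both ages. No share of all genes was taken with the block. The age comparisons within a genotype could not be fitted with the block.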
